A study of Caenorhabditis elegans with 23 samples.

Results

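The comparison described here is the change of wild-type worms between the stage labelled L3, a larval stage, and day 8, under control RNA interference. Its members are 5 of the study's 23 arrays, taken by their labels: 2 arrays of day 8 N2 (WT) worms and 3 arrays of L3 N2 (WT) worms, all fed bacteria carrying an empty vector (EV). The study knocked down ash-2, a subunit of the complex that trimethylates histone H3 on lysine 4, in WT worms and in glp-1(e2141ts) mutants, in which very few germ cells form, and the EV worms are its controls. All groups were grown at 20 degrees and whole worms were lysed, so each array holds every tissue together with any embryos the animals carried. N2 is the standard hermaphrodite laboratory strain. The submitters left out the third day 8 WT EV array for quality. The labels do not say from which event day 8 is counted, nor whether each array had a culture of its own, so p-values measure only the spread between these samples, which may be technical. For the comparisons between age changes, 3 day 8 and 3 L3 arrays of glp-1 worms on EV, and 3 and 3 arrays of WT worms on ash-2 RNAi, were used.

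Caenorhabditis elegans larvae renew a collagen cuticle at each moult, and the epidermis makes the collagens in bursts that follow the moulting cycle. Hermaphrodites first make a store of sperm and then switch to oocytes, which they go on making through early adult life. The adult intestine produces yolk for the oocytes, and with age the reproductive tract, body wall muscle and intestine deteriorate. In whole-worm RNA, fewer cells of a type and less RNA per cell cannot be told apart.

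The stage labels were first checked against markers, on the deposited log2 intensities. The arrays labelled L3 carried transcripts of later stages at high intensity. Col-19, a cuticle collagen used as a marker of the adult epidermis, measured 7.30 and 7.56 in day 8 worms, against 12.48, 12.45 and 11.90 in worms labelled L3. The yolk protein gene vit-2 measured 11.63 and 10.55 on day 8, against 11.38, 11.57 and 11.37. Msp-45, a gene for the major sperm protein of the crawling nematode sperm, measured 5.09 and 4.51, against 13.58, 13.42 and 13.25. The first and the last were thus lower in both day 8 arrays than in every L3 array, and vit-2 overlapped between the ages. Of the other yolk genes, vit-4, vit-5 and vit-6 were at intensities between 13.12 and 13.54 in the L3 arrays. Larval moulting genes were present in the same L3 arrays, for example mlt-10, which measured 6.13 and 6.47 on day 8 and 8.34, 8.26 and 8.34 at L3 on its unshared probe set. All 3 L3 arrays showed this, so no result can be given without them, and the age makeup of the worms behind the label was not tested. Below, L3 names the label. The markers of 5 male-tail and male-neuron genes lay between 3.62 and 4.88 on day 8 and between 3.89 and 5.35 at L3, and none of them passed the test.

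**Figure D1:**
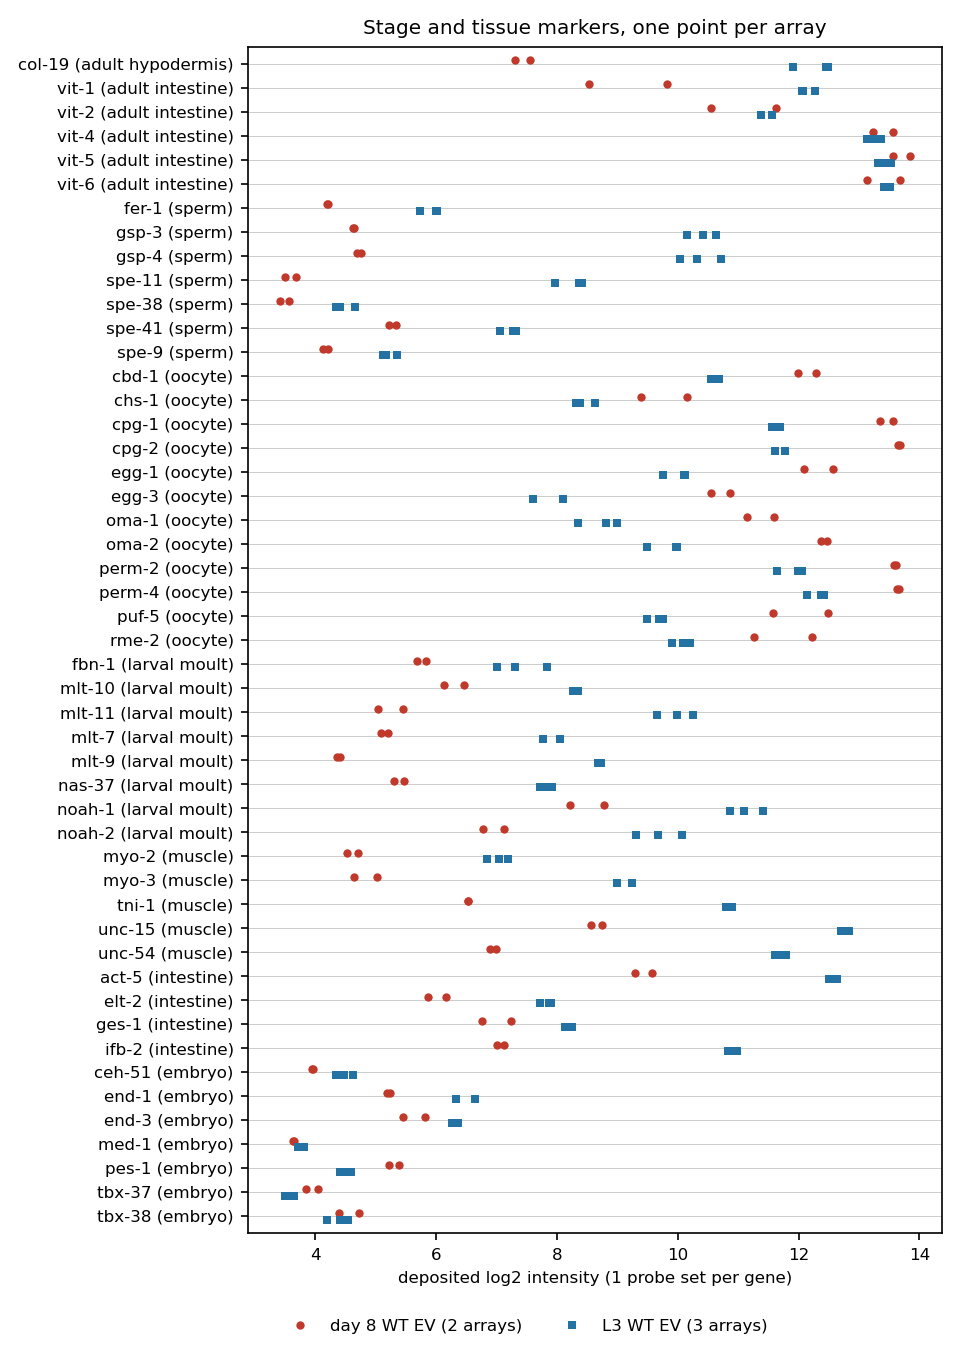
Deposited log2 intensities of stage and tissue markers in each array (x axis), with day 8 WT EV arrays as circles (2) and L3 WT EV arrays as squares (3), 1 probe set per gene. Col-19, the sperm, moulting and muscle markers lie to the left on day 8, the oocyte markers lie to the right, and vit-2, vit-4, vit-5 and vit-6 have about equal intensities at both ages.

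Array medians were 4.89 and 4.93 on day 8 and 5.88 to 5.89 at L3, a difference of 0.97, whereas the lower quartiles differed by -0.386 and the upper quartiles by only -0.188 (day 8 minus L3). This offset runs with age over the whole study, so a general shift between the ages and a difference in normalization cannot be told apart. Changes are therefore given on the log2 scale after centring each array on its median, as day 8 minus L3 ± SE, and the same change in the deposited values is lower by 0.97 throughout. Centring leaves the median probe set 0.71 higher on day 8, the deposited values leave it 0.26 lower (-0.26), and quantile normalization leaves it at 0.10. A gene is said to have risen or fallen only if its probe set passed limma's test for a change above 2-fold, at an adjusted p under 0.05, in all 3 scalings with the same sign. Other values are given without such a verb.

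Of 22548 probe sets, 6603 (29.3%) passed with centred values, 4727 higher (21%) and 1876 lower (8.32%) on day 8. With deposited values the split turned to 1286 higher and 3811 lower, and with quantile normalized values it was 2369 higher and 2464 lower. In all 3 scalings 3162 probe sets passed (14%), of which 1286 (5.7%) rose and 1876 (8.32%) fell. Since deposited changes are lower than centred ones throughout, the deposited values decided the rises and the centred values the falls. The rule thus asks a larger centred change of a rise than of a fall, and the excess of falls depends on it. Taking the brightest probe set of each of 17118 genes, 922 genes rose (5.39%) and 1537 fell (8.98%), and these shares are the background for each gene group below. After centring alone 20.3% of genes were higher, the background for the counts so described. The median change over all genes was 0.69 centred and -0.28 deposited. At least 16-fold changes, a log2 size of 4, were reached by 122 probe sets that rose and 273 that fell. The deposited values of the ages did not overlap for 82% of all probe sets, so lack of overlap alone says little. L3 arrays correlated with each other at 0.996 to 0.998 across probe sets, and the day 8 pair at 0.990.

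**Figure D2:**
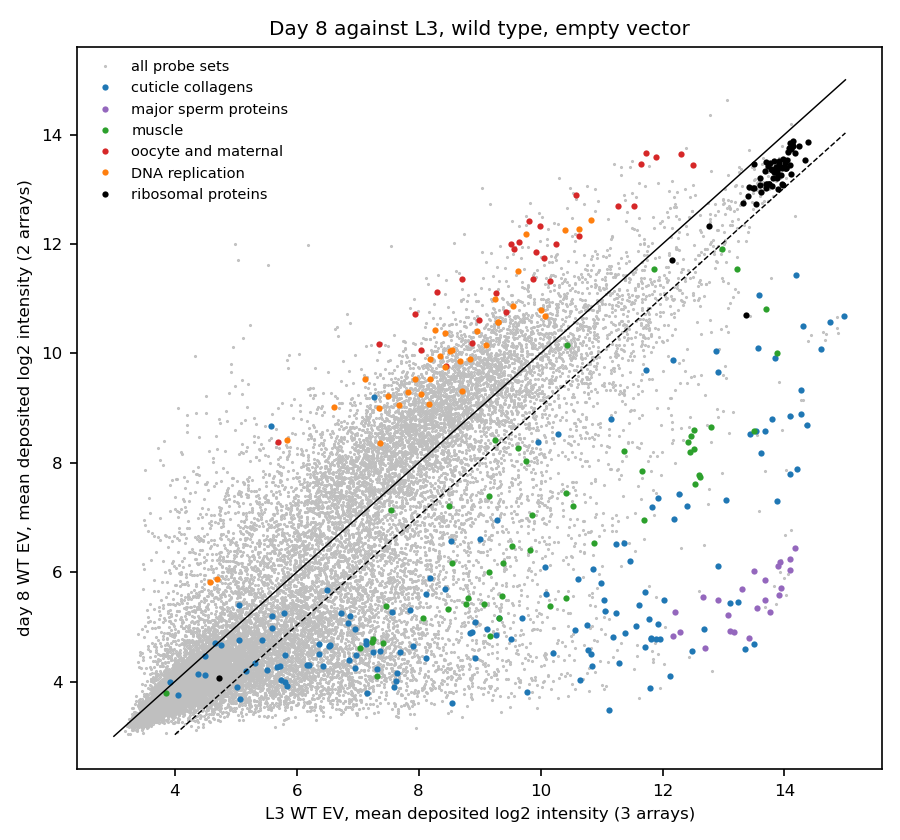
Mean deposited log2 intensity of every probe set in day 8 WT EV worms (y axis, 2 arrays) against L3 WT EV worms (x axis, 3 arrays). The solid line marks equality as deposited and the dashed line marks equality after median centring, 0.97 lower. Cuticle collagens, major sperm proteins and muscle genes lie mostly below both lines, oocyte and DNA replication genes above both, and ribosomal protein genes between or near them.

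Cuticle collagens fell in number. Of 147 collagen genes 100 fell and 2 rose, with a median change of -2.94 centred and -3.92 deposited, and the ages did not overlap for 143 of them. Col-109 measured 4.01 and 3.75 on day 8, against 11.84, 11.95 and 12.07 at L3. It fell by 7.10 ± 0.14 (log2; adjusted p = 1.7e-17), the largest fall among unshared probe sets that name 1 gene. Col-39 fell as far, at 3.92 and 4.28 against 12.13, 12.12 and 12.11 (-7.05 ± 0.21). In both genes the day 8 values lay near the low end of the scale, which reaches down to 3.01 in these arrays, and without detection calls it is unknown how far they lie above background.

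Most collagens named for their role in body form were lower on day 8. Rol-6, whose mutants roll, measured 5.38 and 5.41 on day 8 and 11.62, 11.57 and 11.64 at L3 (-5.24 ± 0.18). The collagen bli-2, whose loss blisters the cuticle, measured 4.71 and 4.92 on day 8 and 11.20, 11.23 and 11.11 at L3 (-5.39 ± 0.26), and lon-3, which affects body length, 5.46 and 5.54 and 11.20, 10.98 and 10.92 (-4.57 ± 0.23). The body-length collagen dpy-13, on a shared probe set that can bind other transcripts too, measured 10.07 and 10.09 on day 8 and fell by 3.56 ± 0.14. Only dpy-14 and dpy-17 rose among the 147. Dpy-17 measured 8.81 and 9.58 on day 8, against 7.32, 7.07 and 7.40 at L3, a rise of 2.90 ± 0.29 (adjusted p = 9.5e-06).

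Moulting and epidermal patterning genes fell in smaller shares. Of 38 moulting regulators and enzymes 13 fell and 1 rose (median -0.91), and of 39 cuticlin and zona pellucida domain genes 6 fell and 1 rose (median 0.60 centred, -0.37 deposited). Mlt-9, which is needed to shed the old cuticle, measured 4.36 and 4.41 on day 8, against 8.72, 8.72 and 8.68 at L3 (-3.35 ± 0.16; shared probe set). Nas-7, an astacin protease, measured 4.21 and 4.22, against 8.71, 8.70 and 8.55 (-3.47 ± 0.21). Hedgehog-related proteins and the patched-related ptr proteins act in cuticle formation and moulting in this species, which lacks much of the classical hedgehog pathway. Of 80 such genes 24 fell and none rose in all scalings, although 4 were higher after centring. Grd-14 measured 5.68 and 5.81 on day 8, against 11.92, 11.64 and 11.79 at L3 (-5.06 ± 0.21), and grd-10 measured 4.96 and 4.51, against 10.51, 10.45 and 10.56 (-4.80 ± 0.16). Both ages of each gene were far apart, with no overlap.

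Major sperm protein transcripts were far lower on day 8. All 23 major sperm protein genes fell, with a median of -6.89 centred and -7.86 deposited. Their list median was 6.06 and 4.92 in the day 8 arrays, against 13.60, 13.57 and 13.34 in the L3 arrays. Every one of them was read by a shared probe set, since these genes are near copies of each other, and single members cannot be separated. The first day 8 array was higher than the second for msp-36 (6.19 and 4.34, against 13.87, 13.79 and 13.64) and for msp-31 (6.27 and 4.89, against 14.11, 13.89 and 13.71).

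Of 26 other spermatogenesis and sperm function genes 9 fell and 1 rose (median -0.91). Ssp-16, a small sperm-specific protein gene of the major sperm protein class, measured 3.91 and 4.09 on day 8 and 10.08, 10.04 and 10.03 at L3 (-5.08 ± 0.18; adjusted p = 1.0e-13). Spe-11, which sperm deliver to the egg, measured 3.50 and 3.68 on day 8, against 8.42, 8.37 and 7.97 at L3 (-3.69 ± 0.22). The gene that rose was spe-39, which also acts in vesicle traffic outside sperm (2.63; shared probe set). The membrane protein genes spe-9 and spe-38, used in fertilisation, had L3 intensities of at most 5.35, and their centred changes were -0.07 ± 0.11 and -0.01 ± 0.13, the first on a shared probe set.

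Muscle genes fell together. Of 51 sarcomere and attachment genes 37 fell and none rose, with a median of -2.24 centred and -3.21 deposited. Tni-1, a troponin I, measured 6.53 and 6.53 on day 8 and 10.90, 10.80 and 10.90 at L3, a fall of 3.37 ± 0.11. Unc-54, the major body wall myosin heavy chain, measured 6.99 and 6.90, against 11.66, 11.62 and 11.78 (-3.77 ± 0.16; adjusted p = 9.0e-12). Unc-15, the thick filament paramyosin, measured 8.56 and 8.74, against 12.70, 12.83 and 12.84 (-3.16 ± 0.15). The day 8 arrays were the lower ones for each of the 3, all read by shared probe sets. The largest fall in the list was that of clik-1, a calponin-related gene (-3.96; shared), and the basement membrane collagen emb-9 also fell (-2.84). The pharyngeal myosin myo-2 did not pass, at 4.71 and 4.54 on day 8 and 6.85, 7.05 and 7.19 at L3 (-1.44 ± 0.31; adjusted p = 0.26; shared).

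Few neuronal genes rose or fell. Of 59 synaptic transmission and neurotransmitter genes 4 fell and 2 rose, and their median was -0.03 centred and -1.0 deposited, both lower than the medians of all genes. Unc-119, expressed throughout the nervous system, measured 7.12 and 7.66 on day 8 and 6.77, 6.75 and 6.68 at L3, which passed with centred values only (1.63 ± 0.15). The aromatic amino acid decarboxylase bas-1, needed for serotonin and dopamine synthesis, fell at 5.78 and 5.65 against 8.42, 8.50 and 8.52 (-1.79 ± 0.13). The genes that rose were tdc-1 and tbh-1, which make tyramine and octopamine and are also expressed in the gonad. Tdc-1 measured 10.21 and 8.99 on day 8, against 7.28, 7.39 and 7.42 at L3 (3.21 ± 0.30). The 25 FMRFamide-like neuropeptide genes had a lower median, -1.10 centred and -2.07 deposited. Of these genes 1 fell (flp-27, -1.40 ± 0.15, adjusted p = 0.026), a call that no longer passed without the first day 8 array (-1.29), the first L3 array (-1.39) or the second L3 array (-1.35). Ric-4, a SNAP-25 homologue, also fell (-1.79 ± 0.25; adjusted p = 0.011) and did not pass without the first day 8 array (-1.73). Among 58 other neuropeptide-like genes 5 fell and 1 rose (median -0.19 centred, -1.17 deposited). Nlp-39 measured 8.00 and 8.32 on day 8 and 4.28, 3.93 and 4.17 at L3, a rise of 5.01 ± 0.24.

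Intestinal structure genes fell as well. Of 26 intestinal identity and brush border genes 10 fell and 1 rose (median -0.86 centred, -1.83 deposited). Ifb-2, an intermediate filament protein of the intestinal terminal web, measured 7.12 and 7.0 on day 8, against 10.84, 10.93 and 10.98 at L3 (-2.88 ± 0.12). Act-5, the microvillar actin, measured 9.57 and 9.30, against 12.50, 12.61 and 12.64 (-2.18 ± 0.10). Both are on shared probe sets and lower in each day 8 array. Elt-2, the GATA factor that maintains intestinal fate, measured 6.16 and 5.87 on day 8 and 7.90, 7.72 and 7.88 at L3 and did not pass (-0.84 ± 0.16 centred, -1.81 deposited).

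Oocyte and maternal genes rose from intensities that were already high at L3. Of 30 such genes 13 rose and none fell, 25 were higher after centring alone, and the median change was 2.80 centred and 1.83 deposited. The list medians were 12.16 and 11.55 in the day 8 arrays, against 9.92, 9.94 and 9.68 in the L3 arrays. Mex-6, a zinc finger protein of embryonic polarity, measured 11.33 and 10.91 on day 8, against 8.22, 8.41 and 8.27 at L3 (3.79 ± 0.40). Egg-1, an oocyte surface protein needed for sperm entry, measured 12.57 and 12.10, against 10.11, 10.11 and 9.76 (3.31 ± 0.42; adjusted p = 7.8e-05). Puf-5, an RNA-binding repressor in oocytes, measured 12.48 and 11.58, against 9.76, 9.69 and 9.49 on a shared probe set (3.35 ± 0.30). For each gene both day 8 arrays stood above the 3 L3 arrays. The yolk receptor rme-2 did not overlap either, at 12.22 and 11.26 against 10.08, 10.20 and 9.90, but passed with centred values only (2.65 ± 0.46). Of the yolk genes themselves none rose, and vit-1 fell at 9.82 and 8.54 against 12.05, 12.27 and 12.08 (-1.98 ± 0.37; adjusted p = 0.026). That call was lost without the second day 8 array (-1.32) or the second L3 array (-1.91).

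Genes of the cell cycle moved the same way. Of 37 DNA replication genes 18 rose and none fell, 36 were higher after centring, and the median was 2.44 centred and 1.47 deposited. Psf-3, a subunit of the GINS helicase complex, measured 8.39 and 8.46 on day 8, against 5.88, 6.10 and 5.56 at L3 (3.55 ± 0.22). Orc-1, of the origin recognition complex, measured 9.87 and 9.21, against 7.23, 7.19 and 6.92 (3.39 ± 0.17). Dut-1, the dUTPase, measured 12.20 and 12.16, against 9.89, 9.79 and 9.61 (3.39 ± 0.25). None of the 3 overlapped between ages. Of 51 mitosis and cell cycle genes 8 rose and none fell, with 42 higher after centring (median 2.03 centred, 1.06 deposited). The phosphatase gene cdc-25.2 measured 8.47 and 8.58 on day 8 and 6.15, 6.24 and 6.27 at L3 (3.28 ± 0.16). Cyclin E, cye-1, measured 7.80 and 6.35 on day 8 and 4.73, 4.62 and 4.81 at L3, so the day 8 arrays differed from each other by more than the whole L3 range (3.32 ± 0.30).

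Germline genes with earlier roles rose in smaller shares. Of 31 meiosis genes 6 rose (median 1.88 centred, 0.91 deposited), of 30 P granule and germline small RNA genes 5 rose (1.56 and 0.59), and of 18 germline stem cell and translational regulator genes 2 rose (1.51 and 0.54). None fell in any of the 3 lists. Zim-1, a zinc finger protein of chromosome pairing centres, measured 7.77 and 7.24 on day 8, against 5.13, 5.29 and 5.17 at L3 (3.27 ± 0.16). The nuclear Argonaute hrde-1, which carries inherited silencing, measured 9.12 and 8.16, against 6.42, 6.89 and 6.99 (2.84 ± 0.32). Lst-1, a stem cell factor downstream of the Notch receptor, measured 10.22 and 10.29, against 8.21, 8.20 and 7.97 on a shared probe set (3.1 ± 0.13). By contrast, gld-1, a translational repressor of the meiotic germ line, measured 11.83 and 11.42 on day 8 and 10.58, 11.08 and 10.91 at L3 and did not pass (1.74 ± 0.44; adjusted p = 0.17). The P granule helicase glh-1 measured 10.81 and 10.35, against 11.62, 11.74 and 11.94 (-0.22 ± 0.18 centred, -1.19 deposited; shared), so its deposited values were lower on day 8.

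Genes of histone H3 lysine methylation, the machinery the study is about, were also higher. Of 21 genes of the H3K4 methylation complexes, related methyltransferases and demethylases 3 rose and none fell, and 18 were higher after centring (median 1.99 centred, 1.02 deposited). Wdr-5.3 measured 10.66 and 10.29 on day 8, against 8.04, 8.16 and 8.09 at L3 (3.35 ± 0.25; adjusted p = 7.7e-08). Wdr-5.1, the WD40 subunit of the complex, measured 10.63 and 10.61, against 9.04, 9.06 and 8.89 (2.59 ± 0.13). The demethylase gene lsd-1 measured 7.76 and 6.86, against 4.75, 4.97 and 5.18 (3.31 ± 0.23). Day 8 was the higher age in each array for all 3. The methyltransferase set-2 measured 8.62 and 8.92 on day 8 and 8.14, 8.29 and 8.37 at L3 (1.48 ± 0.16, passing with centred values only), and ash-2 itself 8.67 and 7.80 and 7.17, 7.14 and 7.17 on a shared probe set (2.05 ± 0.32, likewise).

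Some transcription factor genes rose, in shares that differed between families. Of 60 ceh homeobox genes 8 rose (13.3%) and none fell (median 0.80 centred, -0.18 deposited). Of 28 early embryonic zygotic genes 2 rose (7.14%), and of 254 nuclear hormone receptors 6 rose (2.36%) and 3 fell. Over all genes 5.39% rose, so the embryonic share was near and the receptor share below that of all genes. Ceh-21, of the ONECUT class, measured 7.58 and 7.86 on day 8, against 5.03, 4.88 and 4.95 at L3 (3.74 ± 0.15). Hlh-2, a basic helix-loop-helix factor used in many lineages, measured 8.04 and 8.70, against 5.33, 5.36 and 5.18 on a shared probe set (4.05 ± 0.13). The nuclear receptor nhr-2, which is expressed in early embryos, measured 7.27 and 7.95, against 4.57, 4.32 and 4.59, also shared (4.09 ± 0.14). The 3 genes did not overlap between ages. Of 7 embryo markers measured none passed in all 3 scalings, and they differed among themselves. The forkhead gene pes-1 measured 5.22 and 5.40 on day 8, against 4.46, 4.42 and 4.59 at L3, and was higher after centring (1.79 ± 0.13; adjusted p = 3.2e-05) and after quantile normalization (adjusted p = 0.0069). The T-box gene tbx-37 measured 3.85 and 4.04, against 3.51, 3.65 and 3.63, and was higher after centring only (1.32 ± 0.10; adjusted p = 0.010). End-1, an endoderm specifier, measured 5.24 and 5.19 on day 8 and 6.64, 6.34 and 6.65 at L3 and did not pass (-0.36 ± 0.15). Both day 8 arrays were thus above every L3 array for pes-1 and tbx-37 and below for end-1. Summed on the linear scale in the deposited values, which carry the offset between the ages, the 7 gave log2 7.51 to 7.68 on day 8 and 7.94 to 8.10 at L3, and no order is read from these sums. The part of embryos in the changes above was not tested.

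The 12 largest rises included few genes of the lists. Cav-1, a caveolin found in the germ line and embryos, measured 11.17 and 12.26 on day 8, against 5.09, 4.81 and 5.19 at L3 (7.66 ± 0.40; adjusted p = 1.3e-11). Tts-1, a long noncoding RNA described in long-lived worms, measured 11.84 and 12.13, against 5.55, 6.28 and 6.71 (6.78 ± 0.37). Fmo-2, a flavin monooxygenase, measured 9.66 and 9.66, against 4.71, 5.05 and 5.02 (5.71 ± 0.21). Each of the 3 was more than 4 log2 units above every L3 array. The Skp1-related ubiquitin ligase genes skr-7 (8.41 and 9.32, against 4.14, 4.15 and 4.31) and skr-15 (8.09 and 9.03, against 4.28, 4.11 and 4.19) rose by 5.64 ± 0.23 and 5.34 ± 0.18, with the second day 8 array higher for both. Among the fbxa, fbxb and fbxc F-box genes, whose proteins bind Skp1-type adaptors, 21 of 310 rose and 3 fell (median 0.93 centred, -0.05 deposited). The share that rose, 6.77%, was near the 5.39% of all genes. Fbxa-170 measured 6.96 and 7.22 on day 8, against 4.03, 4.11 and 4.05 at L3 (4.0 ± 0.12). Other large rises were C23G10.11 (5.93 ± 0.21), R04D3.2 (5.55 ± 0.12), T22F3.11 (5.52 ± 0.15), ZK177.1 (5.46 ± 0.17), C01G6.3 (5.39 ± 0.47) and dct-7 (5.36 ± 0.35). Besides collagens, the 12 largest falls held E01G4.6 (-6.10 ± 0.14), Y47D7A.13 (-5.96 ± 0.21) and nsph-3.2 (-5.78 ± 0.20).

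**Figure D3:**
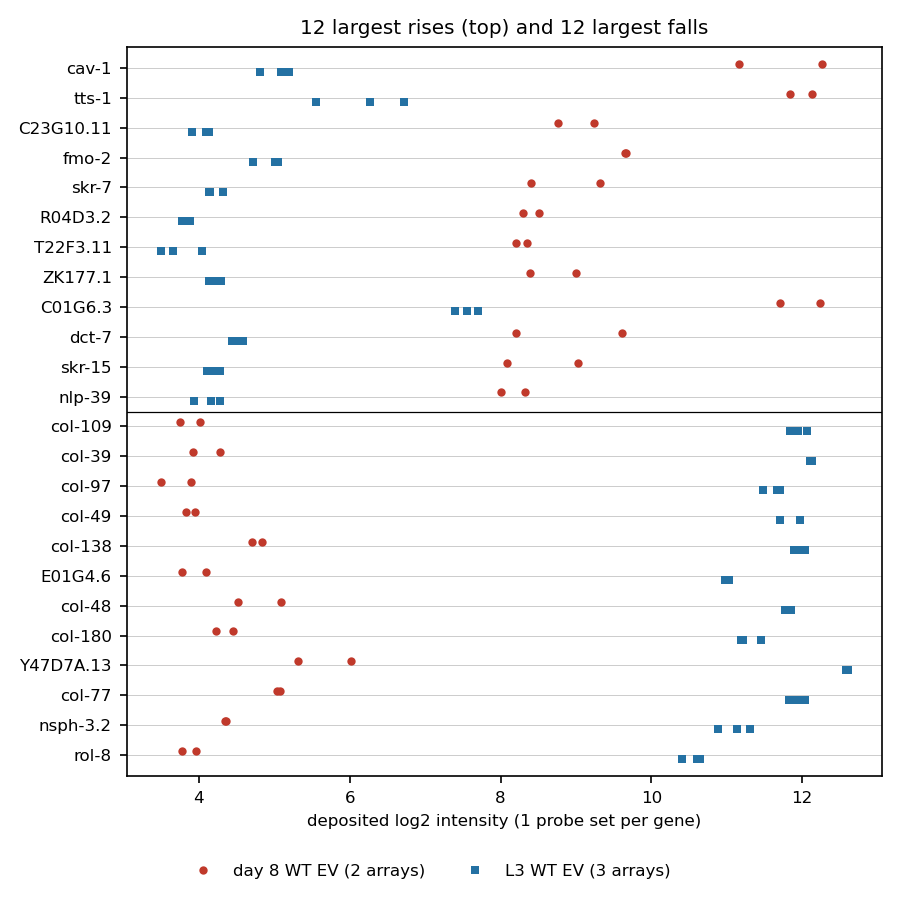
Deposited log2 intensities in each array (x axis) of the 12 genes with the largest rises, above the line, and the 12 with the largest falls, below it, among unshared probe sets of 1 gene passing in all 3 scalings. Day 8 WT EV arrays are circles (2) and L3 WT EV arrays are squares (3). No gene overlaps between the ages, and 8 of the 12 falls are col genes.

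Immune effector genes were found among both the rises and the falls. Of 220 C-type lectin genes, whose products bind sugars and include many pathogen response genes, 21 fell and 6 rose (median 0.64 centred, -0.33 deposited), shares of 9.55% and 2.73% against 8.98% and 5.39% of all genes. The largest change in this list was the rise of clec-266, at 11.05 and 12.17 on day 8 against 6.21, 5.04 and 5.36 at L3 on a shared probe set (7.04 ± 0.43). Of 16 lysozymes 4 rose and 1 fell, of 26 caenacin and antimicrobial peptide genes 4 rose and 3 fell, of 18 saposin-like genes 5 fell and 1 rose, and of 8 irg infection response genes 3 fell. Lys-7 measured 12.29 and 12.07 on day 8, against 8.75, 8.84 and 8.62 at L3 on a shared probe set (4.41 ± 0.21). The invertebrate-type lysozyme ilys-3 measured 6.95 and 7.0, against 4.64, 4.57 and 5.00 (3.21 ± 0.38). The caenacin cnc-2, a secreted antimicrobial peptide, measured 8.51 and 9.31, against 4.46, 4.52 and 4.07, shared as well (5.53 ± 0.28). These effectors were higher in each day 8 array, while others of the same lists were lower. Clec-265 measured 5.84 and 5.58 on day 8, against 10.81, 10.86 and 11.11 at L3 (-4.24 ± 0.27). Irg-4 measured 4.54 and 4.33, against 9.35, 9.15 and 9.34 (-3.87 ± 0.33), and irg-5 6.64 and 5.96, against 10.35, 10.44 and 10.71 (-3.23 ± 0.20). Spp-4 measured 4.81 and 5.1, against 9.92, 10.02 and 9.88 (-4.01 ± 0.22).

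Stress and longevity genes were found among both the rises and the falls. Mtl-1, a metallothionein, measured 7.10 and 7.11 on day 8, against 4.61, 5.42 and 4.59 at L3 (3.20 ± 0.29). Ins-7, an agonist-type insulin-like peptide, measured 7.77 and 7.70, against 5.22, 5.26 and 5.17 (3.49 ± 0.17), and among 24 insulin-like peptide genes ins-2 and ins-34 also rose while ins-33 fell. Sod-3, a mitochondrial superoxide dismutase and a common reporter of the FOXO factor DAF-16, measured 5.37 and 5.66 on day 8 and 6.51, 6.63 and 5.78 at L3 and did not pass (0.18 ± 0.34). Of 9 dod genes, defined as downstream of DAF-16, 4 fell and none rose, and 3 were higher after centring alone. Among those that fell was dod-17 at 4.30 and 4.26 against 8.79, 8.77 and 8.95 (-3.58 ± 0.25). The dod median was -0.23 centred, against 0.69 for all genes. It was 0.07 without the second day 8 array and 0.49 with the mean of each gene's probe sets. DAF-16 activity was not tested. Of 12 small heat shock protein genes 3 fell and none rose (median -0.56), with hsp-12.2 at 6.27 and 6.50 against 9.82, 9.98 and 9.98 (-2.57 ± 0.16), and hsp-16.2 did not pass at 5.33 and 5.71 against 7.42, 7.60 and 7.82 (-1.12 ± 0.18).

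Of 30 genes of insulin receptor, DAF-16 and germline longevity signalling 5 rose and 1 fell (median 0.87 centred, -0.10 deposited). The kinase gene pdk-1 measured 8.37 and 8.14 on day 8, against 6.59, 6.54 and 6.87 at L3 (2.56 ± 0.15), and akt-1 10.74 and 10.49, against 9.0, 9.27 and 9.26 (2.41 ± 0.14). The heat shock factor hsf-1 measured 8.73 and 7.89, against 6.80, 6.52 and 6.76 (2.59 ± 0.24). All 3 are on shared probe sets and are higher in each day 8 array. The insulin receptor daf-2 measured 3.81 and 4.07 on day 8 and 5.02, 5.02 and 5.19 at L3 (-0.17 ± 0.11 centred), and daf-16 8.45 and 8.18 and 7.99, 7.76 and 7.94 (1.39 ± 0.16, centred only), both shared. Among 26 heterochronic and seam cell genes, which time larval development, blmp-1 (5.97 and 5.87, against 8.63, 8.94 and 9.23) and the period homologue lin-42 (4.24 and 4.45, against 7.31, 7.26 and 7.21) fell by 2.04 ± 0.15 and 1.94 ± 0.15, beside col-19. Lin-41, a TRIM protein that is also made in oocytes, rose at 9.58 and 9.35 against 6.78, 7.08 and 6.89 (3.52 ± 0.20; shared).

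By the rule of all 3 scalings, falls outnumbered rises in most metabolic families examined, though not in the cytochrome P450 genes. Of these 5.48% rose, near the 5.39% of all genes, and 1.37% fell, against 8.98% of all genes. Falls also outnumbered rises over all genes, although with centred values alone 3474 genes were higher and 1537 lower. Of 94 genes of fatty acid oxidation, lipases and lipid binding 23 fell and 3 rose (median -0.02 centred, -0.99 deposited). Acdh-1, an acyl-CoA dehydrogenase known to follow propionate and vitamin B12 status, measured 7.51 and 6.97 on day 8, against 12.74, 12.74 and 12.75 at L3 (-4.53 ± 0.38). Acox-1.2, a peroxisomal acyl-CoA oxidase, measured 3.80 and 4.27, against 8.79, 8.92 and 8.88 (-3.85 ± 0.24). The lipase gene lips-11 went the other way, at 8.22 and 8.22 on day 8 against 4.58, 4.49 and 4.60 (4.63 ± 0.38). Of 64 UDP-glucuronosyltransferases 16 fell and none rose, of 45 glutathione S-transferases 11 fell and none rose, of 73 cytochrome P450 genes 4 rose and 1 fell, and of 40 transthyretin-related genes 8 fell and 2 rose. Ugt-47 measured 4.82 and 4.49 on day 8, against 9.71, 9.62 and 9.41 at L3 (-3.95 ± 0.18). Gst-10 measured 5.12 and 5.65, against 10.84, 10.97 and 10.88 (-4.54 ± 0.13), and gst-4, a reporter of the oxidative stress factor SKN-1, 6.32 and 6.77, against 10.23, 10.18 and 10.24 (-2.70 ± 0.16). Cyp-13A5 rose, at 8.09 and 8.34 against 4.82, 4.82 and 4.81 (4.37 ± 0.20). Of 20 desaturases and elongases 4 fell and none rose, with elo-4 at 5.24 and 5.71 on day 8 against 8.57, 8.56 and 8.61 at L3 (-2.13 ± 0.19).

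Several large groups had almost no gene that rose or fell. Of 1265 chemoreceptor-type receptor genes 1 fell and none rose. It was srh-237, at 4.41 and 4.57 on day 8 and 7.38, 7.10 and 7.50 at L3 (-1.86 ± 0.29; adjusted p = 0.013), and it no longer passed without the first day 8 array (-1.81). The list medians of the receptors were 3.77 to 3.82 on day 8 and 3.94 to 4.01 at L3, close to the low end of the scale. Of 63 cytosolic ribosomal proteins 1 fell (rpl-11.2), and of 58 mitochondrial ribosomal proteins none rose or fell. Failing the rule does not mean no change. The mitochondrial ribosomal median was 0.15 centred, -0.82 deposited and -0.80 after quantile normalization, where only 4 of the 58 changes were positive. The cytosolic median was 0.45 centred and -0.52 deposited. Of 65 respiratory chain and ATP synthase genes, with a median of -0.21 centred and -1.18 deposited, 3 fell. These 3, ucr-2.2, asb-2 and asg-2, are second copies of subunit genes, and asb-2 measured 8.27 and 8.44 on day 8, against 11.59, 11.70 and 11.67 at L3 (-2.32 ± 0.12). Of 33 proteasome genes none rose in all scalings, but 12 were higher after centring (median 1.18 centred, 0.21 deposited). Rpn-6.1, a lid subunit tied to longevity, measured 11.26 and 11.23 on day 8 and 10.29, 10.33 and 10.27 at L3 (1.92 ± 0.10 centred, 0.95 deposited; shared).

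**Figure D4:**
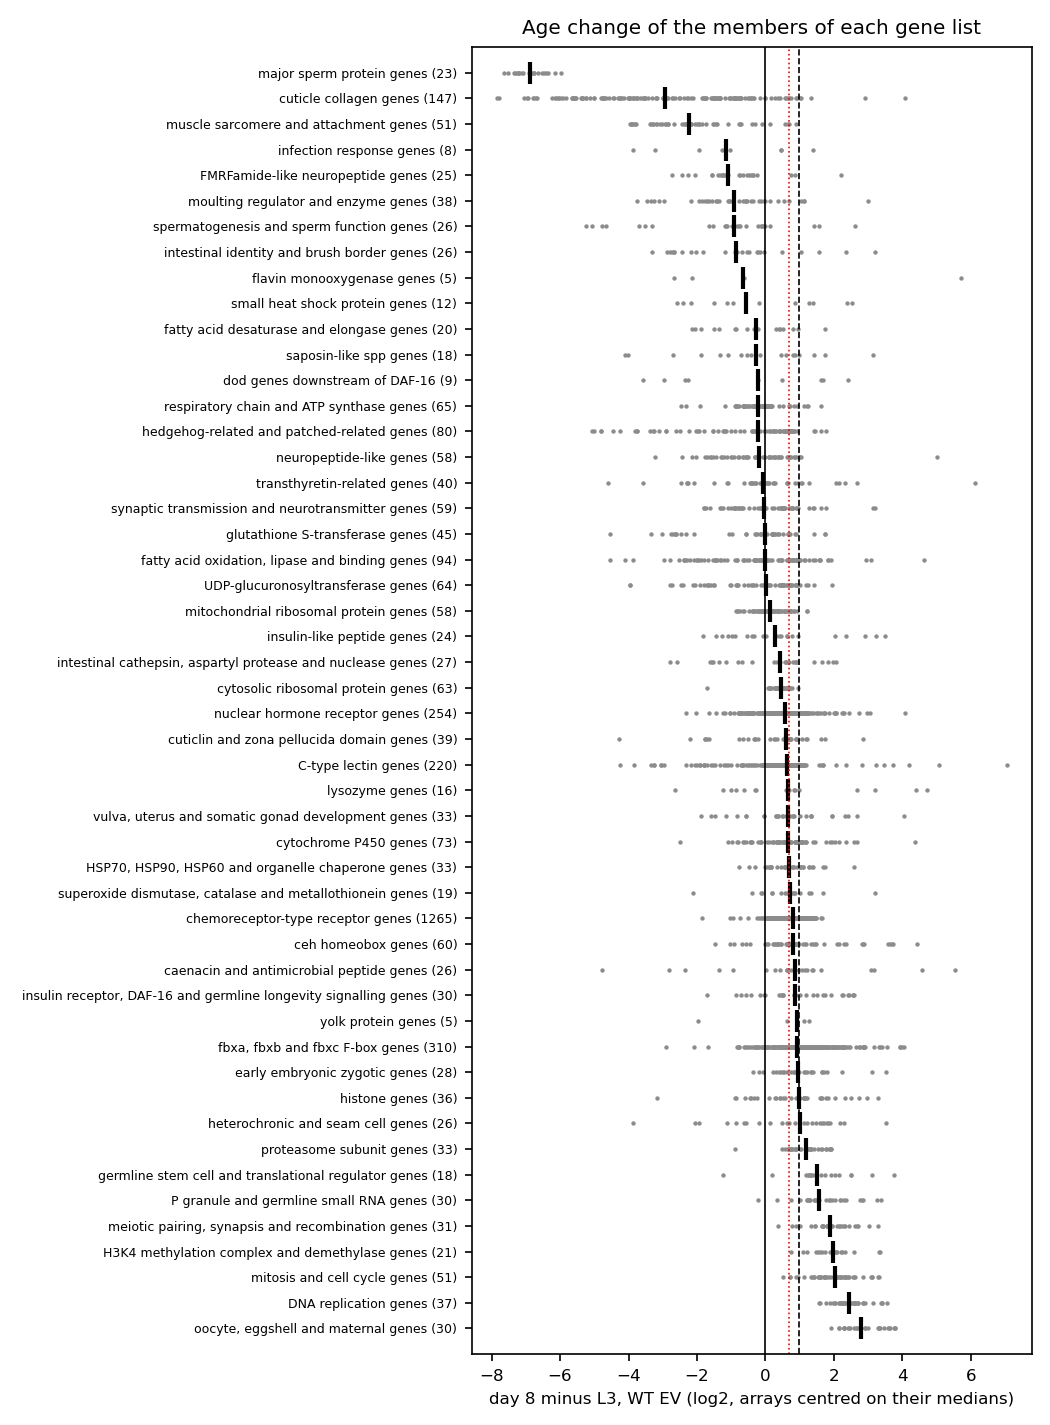
Change of each list member between L3 and day 8 WT EV worms (x axis, log2 of day 8 minus L3 after median centring; grey points, 1 per gene) with the list median as a black bar and the number of genes in brackets. The solid line marks no change after centring, the dashed line no change in the deposited values, and the dotted red line the median of all genes. Major sperm protein, collagen and muscle genes lie lowest by median, and oocyte, replication and mitosis genes highest.

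The age change was next set against that of glp-1 worms on EV, which share no array with the WT worms compared here. The germline gene gld-1 averaged 10.9 in L3 WT worms and 5.50 in L3 glp-1 worms, and the labels give the same growth temperature for both. Some other germline markers differed less at L3. In WT and glp-1, msp-45 averaged 13.42 and 12.43 and perm-4 12.31 and 12.32, both on shared probe sets. Egg-1 averaged 9.99 and 6.51, and spe-11 8.25 and 6.45. The germ cell content of the glp-1 worms was not tested, so they cannot be taken as worms without a germ line. In this comparison of changes a constant offset common to an age cancels. The offset above differed between the median and the quartiles, and a shift that varies with intensity need not cancel. The median difference over all probe sets (WT minus glp-1) was 0.25 centred and 0.07 deposited. Of all probe sets 13494 (59.8%) passed the test for a difference from 0, and 4595 (20.4%) passed for a difference above 2-fold, 2588 (11.5%) with the higher change in WT and 2007 (8.9%) with the lower. By brightest probe set, 60.9% of genes differed from 0 and 21.6% by more than 2-fold: 2035 genes (11.9%) had a higher and 1660 (9.7%) a lower change in WT at the 2-fold minimum, which is the test used below.

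Oocyte and cell cycle genes had higher age changes in WT than in glp-1. Of 30 oocyte and maternal genes 26 had a higher change in WT and none a lower one, with list medians of 2.80 in WT and -0.46 in glp-1. Of 37 replication genes 35 had a higher change in WT (2.44 and -0.90), of 51 mitosis genes 43 (2.03 and -0.52), of 31 meiosis genes 19 (1.88 and 0.15), and of the 21 H3K4 genes 11 (1.99 and 0.21). Pcn-1, the replication clamp PCNA, had changes of 2.84 in WT and -2.40 in glp-1, a difference of 5.24 (adjusted p = 1.8e-09; shared probe set). The change of egg-1 was 3.31 in WT and -1.20 in glp-1. The change of cav-1 was 7.66 in WT and 0.38 in glp-1, a difference of 7.28 ± 0.54. The 4 oocyte genes that did not pass the 2-fold test were pos-1, cpg-2, perm-4 and perm-2. For cpg-2 the difference was large but its SE wide, with changes of 2.91 in WT and -1.27 in glp-1 (difference 4.18 ± 1.57; shared). Perm-2, an eggshell permeability barrier gene, had changes of 2.67 in WT and 2.97 in glp-1 on a shared probe set. Of 58 mitochondrial ribosomal protein genes 30 also had the higher change in WT, with medians of 0.15 in WT and -1.50 in glp-1.

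Collagen and sperm genes had negative medians in both genotypes. Collagen medians were -2.94 in WT and -1.93 in glp-1, and 19 of 147 changed further downward and 2 further upward in WT. Col-109 changed by -7.10 in WT and -8.18 in glp-1. Major sperm protein medians were -6.89 in WT and -5.2 in glp-1, and for 11 of 23 the change was lower in WT. Msp-45 averaged 12.4 in L3 glp-1 worms, and its change was -7.64 in WT and -5.02 in glp-1. Moulting genes went in both directions, 6 of 38 higher and 6 lower in WT. Mlt-11, a protease inhibitor needed for moulting, fell by 3.75 in WT, while its change in glp-1 was -6.52 (difference 2.77 ± 0.27; shared).

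Muscle and intestinal genes had the lower change in WT. Of 51 muscle genes 25 were lower and none higher (medians -2.24 in WT and -0.89 in glp-1), of 26 intestinal genes 16 and none (-0.86 and 0.62), of 64 UDP-glucuronosyltransferases 29 and none (0.01 and 0.89), of 73 cytochrome P450 genes 23 and 4 (0.66 and 1.04), and of 16 lysozymes 6 and none (0.64 and 1.0). The change of unc-54 was -3.77 in WT and -1.85 in glp-1. The change of elt-2 was -0.84 in WT and 1.52 in glp-1, a difference of -2.37 (adjusted p = 3.5e-05). The change of vit-1 was -1.98 in WT and 1.70 in glp-1 (difference -3.68 ± 0.49). Fat-7, a stearoyl-CoA desaturase induced in germline-less worms, had changes of -0.88 in WT and 4.31 in glp-1, and cyp-35B1 of 2.37 and 8.35. The change of tts-1 was 6.78 in WT and 6.20 in glp-1 (difference 0.58 ± 0.50), and that of lys-7 was 4.41 and 5.39 (difference -0.99 ± 0.28). Neither difference passed the 2-fold test.

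**Figure D5:**
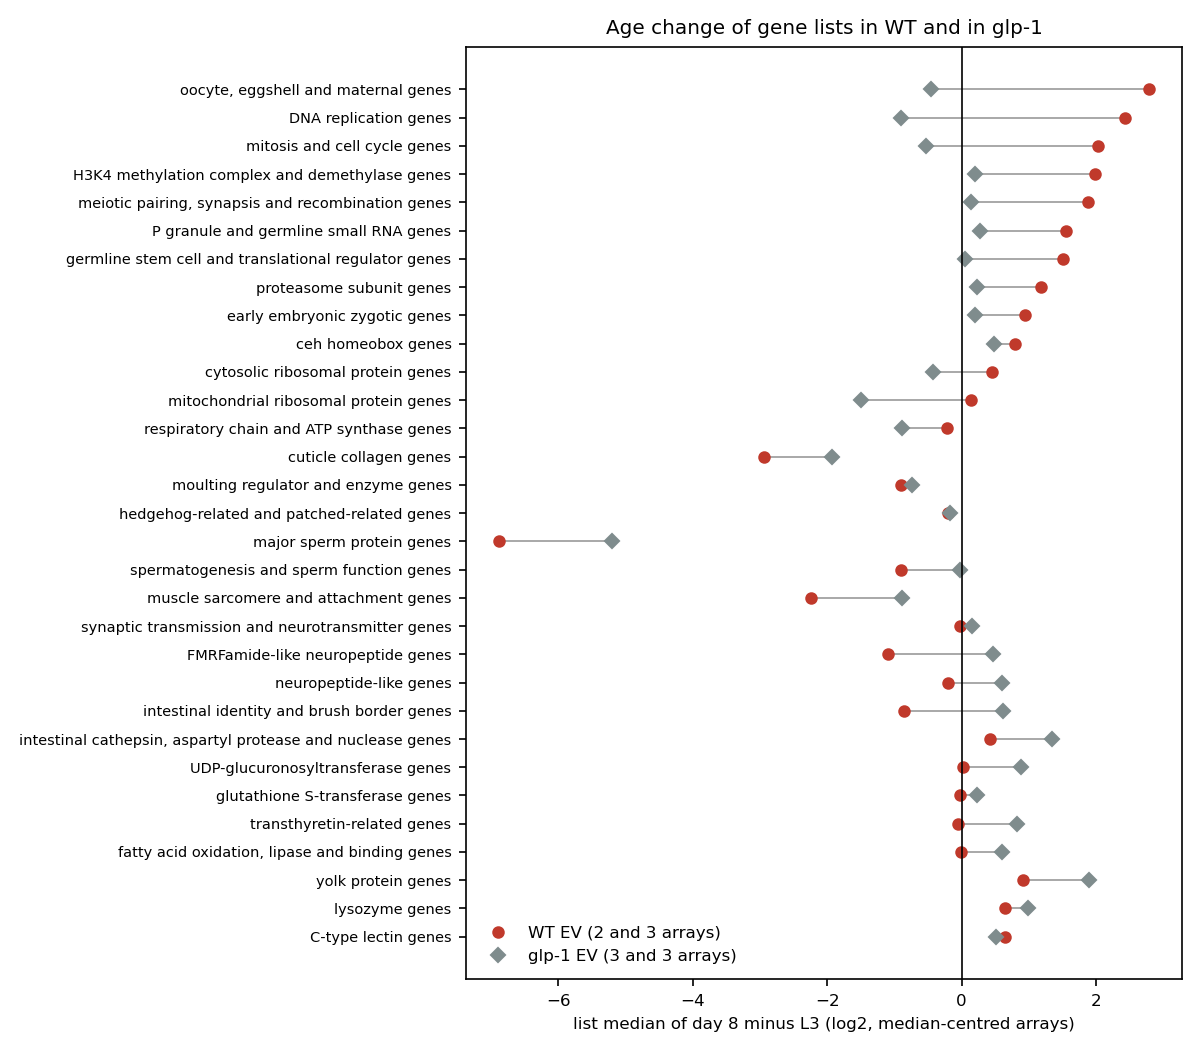
Median age change of gene lists (x axis, log2 of day 8 minus L3 after median centring) in WT worms on EV (circles, 2 day 8 and 3 L3 arrays) and in glp-1 worms on EV (diamonds, 3 and 3 arrays), joined by a line per list. Oocyte, replication and mitosis genes are above 2 in WT and below 0 in glp-1, collagen and major sperm protein genes are below 0 in both, and intestinal identity genes are below 0 in WT and above 0 in glp-1.

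Against WT worms on ash-2 RNAi, which also share no array with the worms on EV, far fewer age changes differed. Of all probe sets 343 (1.52%) passed the test for a difference from 0, 220 (0.976%) with the higher change on EV and the rest (0.546%) with the lower, and among genes 0.964% were higher. The count was 565 without the first day 8 EV array and 184 without the second, and 223 and 203 without the first and second L3 EV arrays. With a 2-fold minimum 11 passed (0.0488%), 10 higher (0.0443%) and 1 lower (0.00443%). List medians were 2.80 on EV and 3.32 on ash-2 RNAi for oocyte genes, -6.89 and -7.26 for major sperm proteins, and -2.24 and -2.04 for muscle genes. Fmo-2 changed by 5.71 on EV and its change was 5.01 ± 0.28 higher than on ash-2 RNAi (adjusted p = 1.5e-09), and that of T22F3.11 was 3.80 higher. C23G10.11 (3.00 higher) and best-1, a bestrophin channel gene (2.46 higher), were next among unshared probe sets. In muscle, 8 of 51 genes had a lower and 1 a higher change on EV, with tnt-2, a troponin T, differing by -1.12 (adjusted p = 0.00023), and among collagens 13 of 147 had the lower change on EV and none the higher. Linker histone genes his-24 and, on a shared probe set, hil-3 changed by 2.96 and 2.73 on EV, 1.41 and 1.57 more than on ash-2 RNAi.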

How the data were processed

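Per the labels' protocols, worms were washed and their RNA was extracted and labelled with biotin, 1 array per sample. The deposited values are log2 intensities of 22548 probe sets for which the submitters' processing notes name RMA as the authors' method. Neither the version nor the chip definition was given in the sources used here. Gene names came from the platform annotation, updated through a reference gene table for 20701 probe sets; 20766 name 1 gene, 887 several and 895 none. Probe sets ending in _s_at or _x_at (6711) are called shared. Empty cells (6, in 5 probe sets) were left out of the fit.

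All 23 arrays, centred on their medians, entered 1 limma model (version 3.58.1, R 4.3.3) of 8 group means (15 residual degrees of freedom), so SEs rest on the spread within all groups. They can understate the uncertainty for genes in which the day 8 arrays lie far apart, such as cye-1. The day 8 minus L3 contrast was tested with treat against a 2-fold minimum, and differences between age changes against 0 and 2-fold, all two-sided with Benjamini and Hochberg adjustment over all probe sets. Lists (50) use the brightest probe set per gene. Members, lists and tests were chosen with earlier results of these data known. Genes named are the 12 largest rises and falls among unshared probe sets passing in all scalings without overlap, up to 4 passing members per list with the largest change, the stage markers and the 8 smallest p of each difference; others were chosen after their values were seen. Steps were tested on simulated data, with a constant shift between the ages, unlike the offset in these arrays. Of 50 probe sets changed by a log2 size of 2, 46 were recovered after centring and 32 after quantile normalization. At a log2 size of 5 these counts were 50 and 43, and at 1, the minimum of the test, 0 and 0. Deviations from the group means of same-numbered day 8 and L3 arrays correlated at r = -0.205 and -0.011. With 2 day 8 arrays these deviations mirror each other, so the check cannot show whether numbers pair the arrays. The labels do not state such a pairing, and none was used. The number of arrays limits the precision.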

Additional observations from a re-analysis of the deposited data

Results flagged for a closer look

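A difference between groups under the same contrast drew attention to each value here. The age change differed between WT and glp-1 for 13494 probe sets, and between EV and ash-2 RNAi in WT for 343. Among unshared probe sets with the smallest p for WT minus glp-1, the difference was 4.91 for R04D3.2 (5.55 in WT, 0.64 in glp-1), 5.86 for R05H5.3 (2.30 and -3.56) and 6.47 for T09B4.5 (3.92 and -2.55). It was negative at -4.56 for Y17D7B.7 (-5.27 and -0.72), -5.98 for cyp-35B1, -4.90 for irg-6 (0.45 and 5.35), -4.90 for clx-1 (-0.03 and 4.87) and -4.08 for the chemoreceptor str-7 (0.94 and 5.02). Irg-6, clx-1 and str-7 did not pass the 2-fold test in WT. For EV minus ash-2 RNAi, the difference was 3.80 for T22F3.11, 5.01 for fmo-2, 3.00 for C23G10.11, 1.83 for F48E3.6, 2.46 for best-1, 1.86 for the cathepsin B gene cpr-1, 2.27 for C35C5.8 and -1.83 for ctsa-4.2. Groups of 2 and 3 arrays are too small to test single arrays as outliers.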

How the results depend on the processing

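The count of 6603 probe sets (4727 higher, 1876 lower) became 1286 higher and 3811 lower with deposited values, 2369 higher with quantile normalization, 14749 (13723 and 1026) when centred on synaptic and muscle genes, 19334 (15251 and 4083) with no fold minimum, 1890 (1058 and 832) with a 4-fold minimum and 3826 (2732 and 1094) without shared probe sets. Leaving out 1 array gave 5805 to 6365, and 2820 to 3053 for the 3162 passing in all scalings, of which 2687 to 3020 were among the 3162. The difference between WT and glp-1 gave 4595 (2588 and 2007) with a 2-fold minimum, chosen after seeing the data, and 12048 to 13256 without 1 array. EV minus ash-2 RNAi gave 11 (10 and 1) with a 2-fold minimum, and 184 to 565 (111 to 400 higher, 67 to 165 lower) without 1 array. With replicate number as a block, although the labels do not state that numbers pair the arrays, the counts were 6637, 13560 and 394. Of 204 named genes 28 no longer passed with deposited values, 12 with quantile normalization and 17 when centred on synaptic and muscle genes. With equal spread per array 12 no longer passed with the same sign, and another 2, rpl-11.2 (0.44) and elo-5 (0.085), changed sign. Medians of 20 of 50 lists changed sign with deposited values. The same was seen for 12 lists when centred on synaptic and muscle genes, 8 with equal spread per array and 6 with quantile normalization. The cause was not tested. Low intensities, with no detection calls, limit what can be said of chemoreceptors.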

Other observations

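Gene families outside the lists were read by name after the values were known, so they are descriptions. Of 19 skr genes 9 rose and none fell in all 3 scalings (median 2.28 centred, 1.31 deposited). Skr-13 measured 9.59 and 10.30 on day 8, against 4.36, 4.35 and 4.30 at L3, and its change was 6.58 in WT and 7.38 in glp-1. The change of skr-8 was 5.85 in WT and 0.92 in glp-1, and that of skr-14 was 5.33 and 1.32. Of the 19 probe sets 7 are shared, those of skr-8, skr-13 and skr-14 among them. Of 21 innexins, the gap junction proteins of invertebrates, 5 rose and 3 fell. Inx-2 measured 8.92 and 10.12 on day 8, against 5.08, 5.05 and 5.18 at L3 (5.39 ± 0.23; shared probe set), and inx-22, which joins the germ line to the gonadal sheath, 10.32 and 10.09, against 7.74, 8.00 and 7.57 (3.41 ± 0.28). Inx-17 measured 5.9 and 5.22, against 8.37, 8.51 and 8.50 (-1.93 ± 0.20), while its change in glp-1 was 1.15.

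Of 11 abu genes, named from the unfolded protein response, 8 fell and none rose, and of 13 dbd genes 9 fell. Abu-14 measured 6.20 and 5.94 on day 8, against 10.95, 10.78 and 10.85 at L3 (-3.82 ± 0.21). Of 12 atg autophagy genes 3 rose, 10 were higher after centring and none fell, with atg-18 at 10.64 and 10.75 on day 8 against 9.20, 9.22 and 9.25 (2.44 ± 0.10). The related epg-2 measured 9.02 and 9.04, against 6.23, 6.48 and 6.51, with changes of 3.59 in WT and -0.66 in glp-1.

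The 2 day 8 arrays lay further apart than any L3 pair, with an SD of the difference of 0.344 across probe sets, against 0.167 to 0.213 among L3 arrays. They differed at least 2-fold for 438 probe sets, 321 of them higher in the first array and 117 in the second. Several of the largest rises, such as dct-7 (8.20 and 9.61, against 4.59, 4.44 and 4.52), show this spread.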
